A study of Mus musculus with 10 samples.

Results

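Interferon-stimulated effector genes were examined in tumors that Panc02 cells, a pancreatic cancer line of the mouse, had formed under the skin (s.c.). The set held 40 genes, chosen by name: antiviral proteins induced by interferon, guanylate-binding proteins (GBPs) and immunity-related GTPases (IRGs). Of these, 39 matched a row among the 37417 genes of the count table, and all 39 were among the 15299 genes that passed the filter on low counts. The identifier of Gbp5 matched no row, and this gene was not analysed here. Both groups had 5 tumors from C57BL/6J mice labelled wild type and 12 weeks old, collected at day 16 after the cells were placed in the right flank. Cancer cells of the sgNT group carried a nontargeting guide RNA, and those of the sgCda group carried a guide against Cda, the gene for cytidine deaminase. Per the study's methods, Cas9 was inducible by doxycycline in the cancer cells, while the host mice were unedited. The study tested more than a single Cda guide in Panc02 cells and calls the last of them sgCda, the name of this group. The comparison therefore asks whether these genes differ in whole tumors when Cda is targeted in the cancer cells. Tumors of a group share their guide. Effects of Cda targeting, of the guide and of the cell derivative cannot be told apart here.

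Type I interferons (the interferon-alpha family and interferon-beta) bind one receptor, and interferon-gamma binds another. Both activate JAK kinases and STAT transcription factors. The DNA elements known for these pathways are the interferon-stimulated response element (ISRE) and the gamma-activated sequence (GAS), and IRF1 and IRF7 extend the response. The induced proteins block viral RNA, attack vacuoles that hold pathogens, sense nucleic acids and damp the signal again. In tumors, cancer cells, macrophages, dendritic cells, endothelial cells and fibroblasts can all express them, and in RNA from whole tumors fewer cells that express a gene and less of its RNA per cell cannot be told apart.

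Promoter sequences are shown to place these genes beside the elements that interferon signalling is known to use. RefSeq windows on GRCm38.p6, from 250 bases before to 50 bases after the start site, were found for 30 of the 40 genes, Gbp5 included, and were searched on both strands for the ISRE letters (GAAA, any 2 bases, GAAA) and the GAS letters (TTC, any 3 bases, GAA). ISRE letters were found in 20 of the 30 genes (66.7%), against 1079 of all 27025 genes with a window (3.99%). GAS letters were found in 10 of 30 (33.3%), against 9.55% of all genes, and both in 9 of 30 (30.0%), against 0.614%. Of the GBP and IRG genes with a window, 9 of 9 held ISRE letters and 6 held GAS letters, and of the other genes 11 of 21 held ISRE letters and 4 held GAS letters. Matches of the motifs can overlap each other, as in Bst2. The 160 bases before the start site are printed for 7 genes that hold a match and whose stretch contains no annotated exon. Each runs 5′ to 3′ on the strand of the gene, and capitals mark the ISRE and GAS letters.
Isg15, chr4:156200819-156200978, minus strand: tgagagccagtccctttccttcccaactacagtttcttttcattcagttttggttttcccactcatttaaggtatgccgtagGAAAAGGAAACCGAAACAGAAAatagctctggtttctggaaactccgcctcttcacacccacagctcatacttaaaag
Ifit3, chr19:34583369-34583528, plus strand: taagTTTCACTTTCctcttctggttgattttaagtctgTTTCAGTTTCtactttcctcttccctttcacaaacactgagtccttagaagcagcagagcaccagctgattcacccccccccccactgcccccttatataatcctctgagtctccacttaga
Rsad2, chr12:26456453-26456612, minus strand: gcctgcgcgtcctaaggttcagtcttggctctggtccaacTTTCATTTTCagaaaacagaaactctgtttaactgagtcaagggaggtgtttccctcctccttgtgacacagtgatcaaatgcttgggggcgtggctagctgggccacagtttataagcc
Gbp7, chr3:142530176-142530335, plus strand: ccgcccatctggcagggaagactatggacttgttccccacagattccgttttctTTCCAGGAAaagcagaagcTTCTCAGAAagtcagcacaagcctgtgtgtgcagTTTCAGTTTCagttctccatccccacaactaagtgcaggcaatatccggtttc
Igtp, chr11:58199396-58199555, plus strand: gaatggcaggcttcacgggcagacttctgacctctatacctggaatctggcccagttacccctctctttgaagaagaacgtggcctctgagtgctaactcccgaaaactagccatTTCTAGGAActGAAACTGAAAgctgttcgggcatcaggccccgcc
Irgm2, chr11:58214817-58214976, plus strand: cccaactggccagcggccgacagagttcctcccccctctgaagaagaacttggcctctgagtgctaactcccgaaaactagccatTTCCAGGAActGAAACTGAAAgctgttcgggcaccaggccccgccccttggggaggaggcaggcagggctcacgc
Tgtp2, chr11:49064213-49064372, minus strand: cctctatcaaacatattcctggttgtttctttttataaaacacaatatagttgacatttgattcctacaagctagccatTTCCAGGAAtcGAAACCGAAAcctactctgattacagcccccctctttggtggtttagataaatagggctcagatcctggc
Isg15 held 3 overlapping ISRE matches that begin 78, 72 and 66 bases before the start site, and Ifit3 held 2 on the opposite strand. Rsad2 held 1 ISRE match, 120 bases before the start. In Igtp, Irgm2 and Tgtp2, as in Tgtp1, GAS letters stood 2 bases before ISRE letters, and Gbp7 had 2 GAS matches before its ISRE match. A match describes these letters only and says nothing of binding in these tumors.

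Assigned counts ran from 28051907 to 39484964 per tumor. The share of uniquely aligned reads that HTSeq assigned to no annotated feature was highest in sgCda 4, at 18.4%, against 10.3% to 14.9% in the sgNT tumors. Levels are given as CPM, counts scaled to a common library size with TMM factors. Cda itself was at a mean of 12.1 CPM (SD 1.76) over the 5 sgNT tumors and 9.77 CPM (SD 2.34) over the 5 sgCda tumors, a difference that did not pass (log2 fold change -0.30, adjusted p = 0.9996). These counts do not measure the targeting in cancer cells alone. The study also found Cda RNA in endothelial cells and fibroblasts sorted from its tumor models. It checked the targeting by RT-qPCR and western blotting. Epithelial markers (Cdh1, Epcam, Krt8, Krt18, Krt19) summed to 569 to 1018 CPM and 8 macrophage markers to 2339 to 3663 CPM, so host and cancer cell transcripts were both present. Skeletal muscle markers summed to between 1.14 CPM in sgCda 5 and 1769 CPM in sgCda 3.

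All 39 genes were expressed in every tumor, over a wide range of levels. Per kilobase of exonic length, mean levels over the 10 tumors were highest for Ifitm3 (601 CPM per kb), a membrane protein that hinders virus entry, followed by Gbp2 (465 CPM per kb) and Bst2 (252 CPM per kb), the tether that holds budding virus at the cell surface. Igtp, at 214 CPM per kb, was the highest IRG. Isg15, the ubiquitin-like modifier, stood at 115 CPM per kb. The lowest levels per length were those of Oas2 (4.53), Tgtp1 (4.00) and Mx2 (1.53 CPM per kb), of which Mx2 is annotated as a polymorphic pseudogene.

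No gene of the set differed between groups after adjustment, and the adjusted p was 0.9996 for each. At an adjusted p under 0.05, edgeR's quasi-likelihood test called 0 of the 39 genes and 0 of all 15299 genes (0.00%). At an unadjusted p under 0.05 it called 4 of the 39 (6 by DESeq2's Wald test and 2 by limma-voom), all with lower levels in sgCda tumors (Samd9l, Ifih1, Usp18 and Ifi44), where 2.50% of all genes were called in either direction, 0.954% as lower and 1.54% as higher in sgCda tumors. The log2 fold change, sgCda over sgNT, was below 0 in 38 of the 39 genes, against 47.1% of all genes, and its median was -0.18, against 0.01 over all genes tested. Because these genes move together from tumor to tumor, the 38 signs are not separate observations. In none of the 39 genes did the values of the groups not overlap, where 0.601% of all genes had groups that did not overlap and 0.294% had them with sgCda lower. The number of unadjusted calls in the set fell or rose when single tumors were left out. It was 1 without sgNT 3, 1 without sgNT 4, 1 without sgCda 3 and 2 without sgCda 1 or sgCda 2. It was 9 without sgCda 4, 10 without sgNT 2 and 11 without sgNT 5. Over all genes the number ran from 280 to 747 with single tumors left out, against 382 with all tumors.

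**Figure D1:**
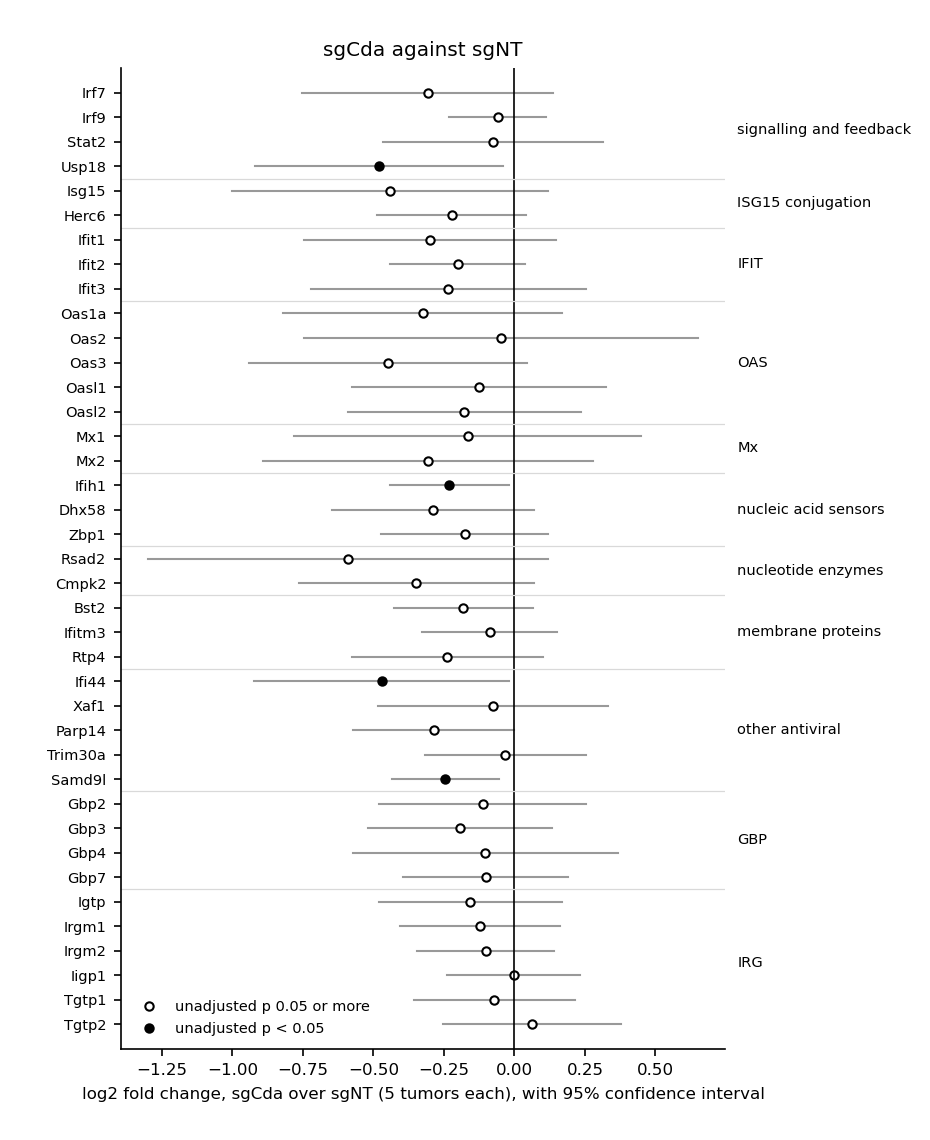
Log2 fold change of each of the 39 genes, sgCda over sgNT (5 tumors each), with the 95% confidence interval from edgeR as a line, grouped by role. Points lie left of 0 for 38 genes, and the 4 filled points have an unadjusted p under 0.05; none passed adjustment.

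The pattern over tumors was more regular than the difference between groups. Tumors sgNT 3 and sgNT 4 stood above the other 3 sgNT tumors in 39 of 39 genes, where this held for 18.1% of all genes tested. The highest of the 10 tumors was sgNT 4 in 20 genes, sgCda 4 in 10 and sgNT 3 in 9, and none of the other tumors was the highest for any of the 39. Over all genes, the highest tumor was one of these 3 in 39.3%, and it was sgCda 4 in 26.5%. The 10 genes highest in sgCda 4 are thus close to its share of all genes. Within the sgCda group, sgCda 4 was the highest tumor in 31 of 39 genes, for which the share of all genes was not computed. The lowest tumor was sgCda 3 in 17 genes, against 22.6% of all genes, sgCda 1 in 9 and sgCda 5 in 6. For sgCda 1 and sgCda 5 the share of all genes was not computed. The mean log2 CPM over the 39 genes was 6.69, 6.52, 7.10, 7.17 and 6.50 in sgNT tumors 1 to 5 and 6.43, 6.60, 6.48, 6.91 and 6.59 in sgCda tumors 1 to 5.

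**Figure D2:**
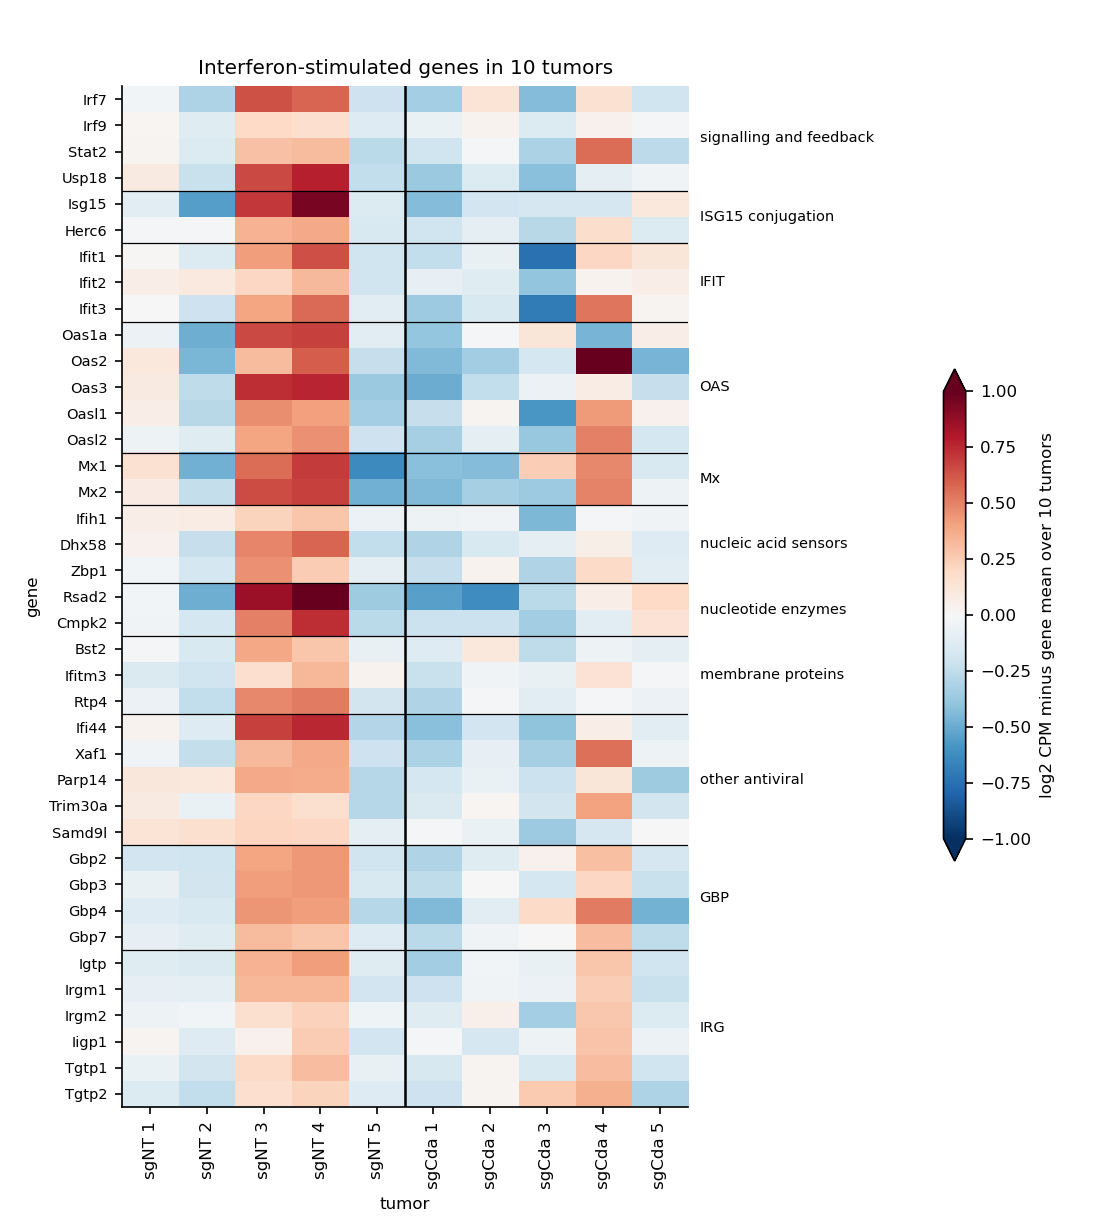
Log2 CPM of 39 interferon-stimulated genes in 10 tumors, each gene centred on its own mean; colors are capped at 1 above and below the mean. The columns of sgNT 3 and sgNT 4 are above the mean in all roles, and sgCda 4 is the next.

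Genes of signalling and feedback include IRF7 (a transcription factor that amplifies type I interferon), the ISGF3 subunits STAT2 and IRF9, and USP18, which removes ISG15 from proteins and blocks the type I receptor. Usp18 was at 39.1, 31.5, 57.8, 62.8 and 31.0 CPM in sgNT tumors 1 to 5 and at 28.4, 33.3, 27.4, 34.3 and 35.9 CPM in sgCda tumors 1 to 5. The groups overlapped, since only sgNT 3, sgNT 4 and sgNT 1 were above every sgCda tumor. Its log2 fold change was -0.48 (SE 0.201, adjusted p = 0.9996). Irf7 was at 126, 104, 200, 193 and 112 CPM in the sgNT tumors and 102, 141, 95.4, 143 and 112 CPM in the sgCda tumors. It was highest in sgNT 3 and sgNT 4, and the other 8 tumors were mixed between groups (log2 fold change -0.31, SE 0.203). Irf9 varied least of the 39 genes, from 78.7 to 99.0 CPM, and Stat2 ran from 97.7 CPM in sgCda 3 to 179 CPM in sgCda 4.

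ISG15 is attached to proteins as ubiquitin is, and HERC6 is the main mouse ligase for it. Isg15 was at 76.0, 56.0, 134, 158 and 74.6 CPM in sgNT tumors and 60.9, 72.1, 73.1, 72.9 and 88.4 CPM in sgCda tumors. The 2 high values were again sgNT 3 and sgNT 4, while its lowest value was also in an sgNT tumor. Its log2 fold change was -0.44 (SE 0.255). Herc6 was at 102, 102, 131, 134 and 93.2 CPM in sgNT tumors and 90.0, 96.5, 85.3, 117 and 93.8 CPM in sgCda tumors, with a log2 fold change of -0.22 (SE 0.121).

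IFIT proteins bind viral RNA and hold back its translation. Ifit2 was at 158, 161, 173, 188 and 131 CPM in sgNT tumors and 142, 139, 114, 154 and 157 CPM in sgCda tumors (log2 fold change -0.20, SE 0.108). Ifit3 was at 96.4, 83.5, 126, 142 and 89.5 CPM in sgNT tumors and 74.8, 86.3, 59.3, 139 and 97.8 CPM in sgCda tumors (log2 fold change -0.23, SE 0.221). Ifit3 was thus nearly as high in sgCda 4 as in sgNT 4, and all 3 IFIT genes were lowest in sgCda 3. Ifit1 ran from 137 CPM in sgCda 3 to 359 CPM in sgNT 4.

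The OAS family makes 2′-5′ oligoadenylates when it meets double-stranded RNA, which activates RNase L; the OAS-like proteins Oasl1 and Oasl2 belong to the same family. Oas3 was at 43.4, 34.2, 68.0, 69.1 and 31.6 CPM in sgNT tumors and 28.9, 34.4, 39.3, 43.0 and 34.9 CPM in sgCda tumors (log2 fold change -0.45, SE 0.224). Oas2 departed from this, with 20.3, 13.7, 23.5, 28.8 and 16.1 CPM in sgNT tumors and 13.9, 14.9, 16.7, 39.996 and 13.7 CPM in sgCda tumors (log2 fold change -0.05, SE 0.318). It was highest in sgCda 4, the tumor with the highest share of reads assigned to no annotated feature. Oas1a was at only 22.7 CPM in that tumor and at 49.4 and 50.2 CPM in sgNT 3 and sgNT 4. Oasl1 (15.8 to 32.4 CPM) and Oasl2 (119 to 221 CPM) were both lowest in sgCda 3.

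MX proteins are dynamin-like GTPases that block viral replication. Mx1 was at 19.6, 12.6, 25.9, 28.7 and 11.3 CPM in sgNT tumors and 13.2, 13.0, 20.9, 24.6 and 15.8 CPM in sgCda tumors (log2 fold change -0.17, SE 0.279). Mx2 was at 5.56, 4.45, 8.28, 8.45 and 3.77 CPM in sgNT tumors and 3.88, 4.19, 4.08, 7.44 and 5.09 CPM in sgCda tumors (log2 fold change -0.31, SE 0.267). Both were lowest in sgNT 5.

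Among sensors of nucleic acids, IFIH1 (MDA5) recognises long double-stranded RNA, DHX58 (LGP2) modulates it, and ZBP1 binds Z-form nucleic acids. Ifih1 was at 118, 119, 132, 137 and 108 CPM in sgNT tumors and 108, 110, 82.4, 112 and 110 CPM in sgCda tumors. Of the sgNT tumors, 4 were above every sgCda tumor, and sgNT 5 lay within the sgCda range (log2 fold change -0.23, SE 0.0957, adjusted p = 0.9996). Dhx58 was at 40.7, 33.7, 55.3, 59.0 and 33.2 CPM in sgNT tumors and 32.0, 35.5, 37.0, 41.1 and 36.1 CPM in sgCda tumors (log2 fold change -0.29, SE 0.163). Dhx58 shares 141 exonic bases with an antisense gene on the opposite strand. Zbp1 ran from 206 CPM in sgCda 3 to 349 CPM in sgNT 3.

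Rsad2 and Cmpk2 lie next to each other on chromosome 12 (GRCm38 chr12:26442746-26456452, minus strand, and chr12:26469204-26479837, plus strand) and are transcribed away from each other. RSAD2 (viperin) turns CTP into a chain-terminating analog, and CMPK2 is a mitochondrial kinase that phosphorylates UMP and CMP, so both act on pyrimidine nucleotides, the class of compounds that cytidine deaminase also handles. Rsad2 was at 49.2, 35.8, 90.8, 114 and 39.1 CPM in sgNT tumors and 34.4, 32.5, 41.5, 52.5 and 57.5 CPM in sgCda tumors. It varied most of the 39 genes, 3.50-fold between its highest and lowest tumor, and had the lowest log2 fold change of the set, -0.59 (95% interval -1.30 to 0.12). Cmpk2 was at 70.9, 64.5, 103, 121 and 60.5 CPM in sgNT tumors and 62.8, 62.6, 57.1, 67.3 and 80.3 CPM in sgCda tumors (log2 fold change -0.35, SE 0.190). For both genes only sgNT 3 and sgNT 4 were above every sgCda tumor.

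**Figure D3:**
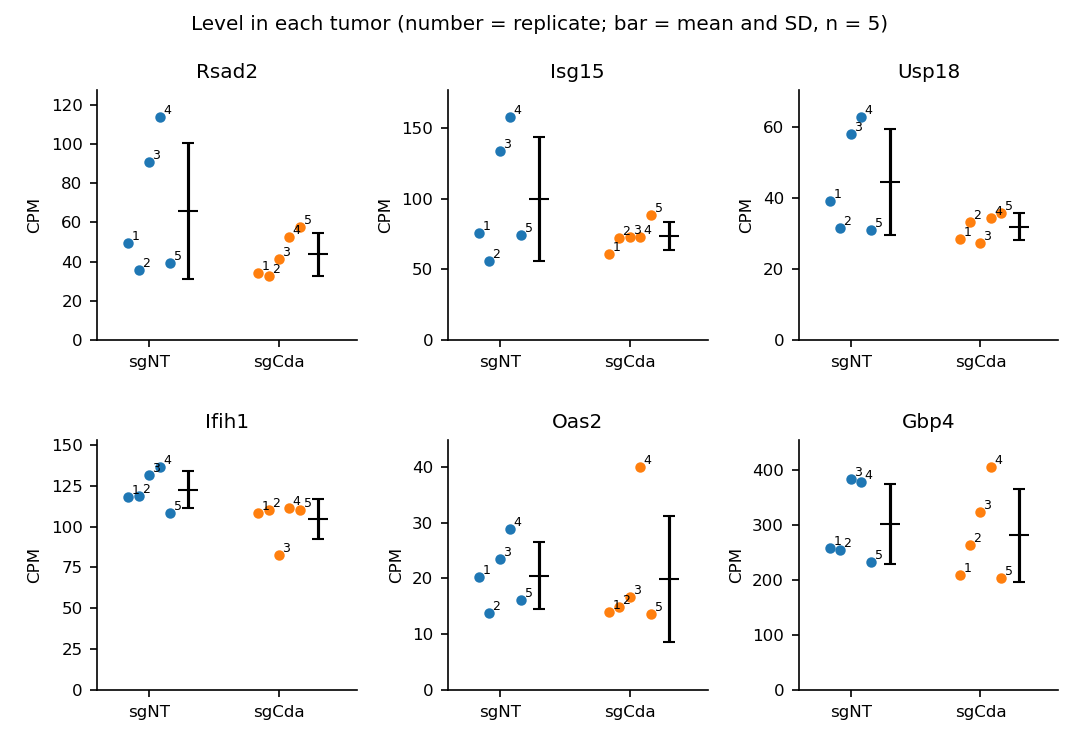
CPM of 6 genes in each tumor, with the replicate number beside each point and the mean with SD (n = 5) as a bar; axes start at 0. In Rsad2, Isg15 and Usp18 the high points are sgNT 3 and sgNT 4, Ifih1 is lowest in sgCda 3, and Oas2 and Gbp4 are highest in sgCda 4.

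Membrane proteins of the set are BST2 and IFITM3, described above, and RTP4, a chaperone of some receptors that is induced by interferon. Bst2 was at 223, 203, 295, 274 and 214 CPM in sgNT tumors and 206, 242, 189, 218 and 211 CPM in sgCda tumors (log2 fold change -0.18, SE 0.112). Rtp4 was at 85.3, 74.6, 124, 127 and 78.0 CPM in sgNT tumors and 71.9, 87.4, 82.6, 87.6 and 85.0 CPM in sgCda tumors (log2 fold change -0.24, SE 0.155). In sgCda tumors Rtp4 varied little, and the tumors sgNT 3 and sgNT 4 alone lay above that range by a wide step. Ifitm3 ran from 347 CPM in sgCda 1 to 510 CPM in sgNT 4.

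Among other antiviral proteins, SAMD9L restricts poxviruses and limits growth of hematopoietic cells, IFI44 is a cytoplasmic protein of antiviral responses, PARP14 is an ADP-ribosyltransferase, TRIM30A is a RING-finger protein of the TRIM family and XAF1 binds the apoptosis inhibitor XIAP. Samd9l had the smallest p of the 39 genes. Its values were 328, 334, 347, 345 and 280 CPM in sgNT tumors and 295, 285, 233, 267 and 300 CPM in sgCda tumors. All sgNT tumors but sgNT 5 lay above every sgCda tumor (log2 fold change -0.24, SE 0.0863, adjusted p = 0.9996). Ifi44 was at 46.9, 41.9, 73.6, 77.6 and 37.4 CPM in sgNT tumors and 34.4, 40.2, 34.7, 48.1 and 42.7 CPM in sgCda tumors, with overlap apart from sgNT 3 and sgNT 4 (log2 fold change -0.47, SE 0.205, adjusted p = 0.9996). Parp14 ran from 204 to 339 CPM (log2 fold change -0.29), Xaf1 from 47.6 to 87.8 CPM and Trim30a from 106 to 171 CPM, the last pair highest in sgCda 4.

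GBPs are large GTPases that coat vacuoles and bacteria and that interferon-gamma induces strongly. Gbp3 was at 442, 409, 622, 626 and 417 CPM in sgNT tumors and 390, 465, 412, 535 and 399 CPM in sgCda tumors (log2 fold change -0.19, SE 0.148). Gbp4 was at 258, 255, 384, 378 and 232 CPM in sgNT tumors and 208, 263, 323, 405 and 204 CPM in sgCda tumors (log2 fold change -0.10, SE 0.214). Gbp4 was therefore highest in sgCda 4, and sgCda 3 stood above 3 of the sgNT tumors. Gbp2 ran from 935 to 1553 CPM and Gbp7 from 285 to 427 CPM, and the log2 fold changes of the 4 measured GBPs lay between -0.19 and -0.10.

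IRGs are smaller GTPases that act on the same vacuoles; Irgm1, Irgm2 and Igtp (Irgm3) regulate the others, while Iigp1, Tgtp1 and Tgtp2 are effectors. Igtp was at 391, 386, 541, 567 and 391 CPM in sgNT tumors and 334, 418, 404, 515 and 371 CPM in sgCda tumors (log2 fold change -0.16, SE 0.148). The 3 highest tumors were sgNT 4, sgNT 3 and sgCda 4. Irgm1 ran from 337 to 495 CPM, Irgm2 from 216 to 329 CPM and Iigp1 from 499 to 695 CPM, the last with a log2 fold change of -0.003. Tgtp2, at 18.9 to 29.9 CPM, was the only gene of the 39 with a log2 fold change above 0 (0.06, 95% interval -0.25 to 0.38). The role medians of the log2 fold change ran from -0.47 for Rsad2 and Cmpk2 to -0.11 for GBPs and -0.09 for IRGs; whether roles differ was not tested.

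Some members share sequence with a close copy, which matters because reads that fit more than 1 gene are not counted. Of the 50-base stretches in annotated transcripts, the read length the study used, 86.6% of those of Tgtp2 and 81.2% of those of Tgtp1 also occur in another gene, mostly in each other. The share was 57.6% for Oas1a (with Oas1g) and 51.2% for Ifit3 (with Ifit3b). Values of these 4 genes are uncertain for this reason. The share was above 10% in 9 of the 39 genes.

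Spread was unequal between groups. The SD of log2 CPM over the 10 tumors had a median of 0.280 over the 39 genes, at the 65.0th percentile of all genes tested, whose median was 0.203. Highest and lowest tumor were more than 2-fold apart in 14 of the 39 genes, against 32.2% of all genes. Within groups, the median SD was 0.308 in sgNT and 0.216 in sgCda tumors, while over all genes it was 0.158 in sgNT and 0.234 in sgCda tumors. The SD was larger in the sgCda group in 14 of the 39 genes, against 77.5% of all genes.

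Correlation between the genes was computed over the 10 tumors on log2 CPM for all 741 pairs of the 39 genes. The median Pearson r was 0.78 (quartiles 0.66 and 0.87), against a median of -0.0007 over the 117022051 pairs of all genes tested. An r above 0.7 was found in 512 pairs (69.1%), against 5.91% of all pairs, and 3 pairs were negative. Pairs share tumors and libraries and are not independent. By Spearman's rho, the median was 0.70. Within sgNT tumors the median r was 0.94, and within sgCda tumors 0.61 (n = 5 tumors each). Leaving out sgNT 3 and sgNT 4, a choice made after their values were seen, gave a median of 0.56, and leaving out single tumors gave 0.71 to 0.84. Part of the correlation therefore rests on those 2 tumors.

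**Figure D4:**
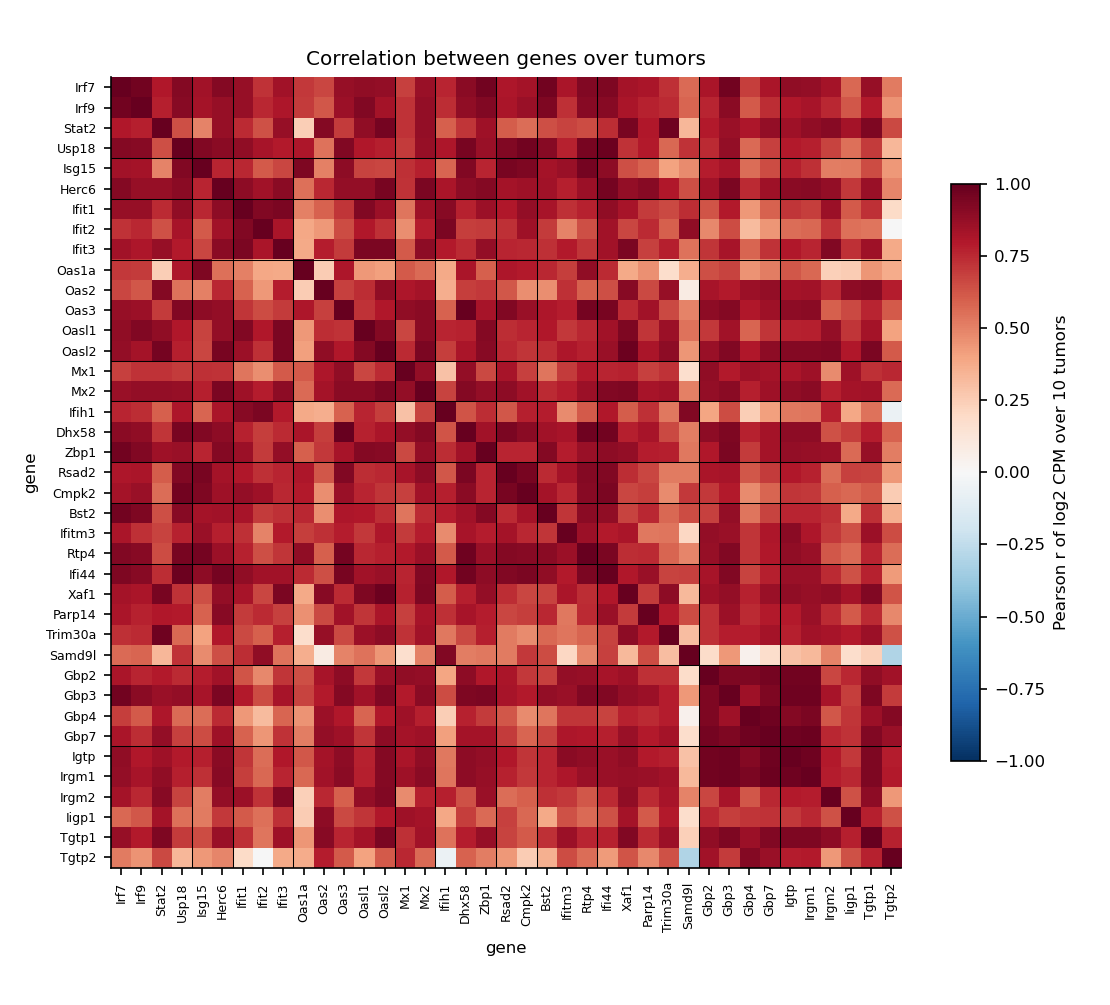
Pearson r of log2 CPM over 10 tumors for all pairs of 39 genes, ordered by role with lines between roles. Most cells are red, with a median of 0.78, and the paler rows are Samd9l, Tgtp2, Oas1a and Ifih1.

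The closest pair was Oas3 with Dhx58 (r = 0.99, rho = 0.99, permutation p = 1e-05 for each, the smallest that 100000 permutations can give). Adjusted over the 741 pairs by the Benjamini-Hochberg method, these permutation p-values were 0.000926 and 0.00247. Without sgNT 3 and sgNT 4, the 2 tumors farthest from the median of Oas3, r was 0.97. Usp18 with Ifi44 (r = 0.98, permutation p = 4e-05, adjusted 0.00148, and rho = 0.94, permutation p = 0.00022, adjusted 0.00741) and Gbp7 with Irgm1 (r = 0.98, permutation p = 2e-05, adjusted 0.00123, and rho = 0.96, permutation p = 5e-05, adjusted 0.00412) came next. Without their 2 farthest tumors, r was 0.89 and 0.97. The lowest pairs all held Tgtp2. With Samd9l, r was -0.30 (permutation p = 0.399, adjusted 0.410) and rho was -0.33 (permutation p = 0.348, adjusted 0.379). With Ifih1, r was -0.06 (permutation p = 0.882, adjusted 0.885) and rho was 0.02 (permutation p = 0.974, adjusted 0.974). With Ifit2, r was -0.005 (permutation p = 0.989, adjusted 0.989) and rho was -0.13 (permutation p = 0.732, adjusted 0.742). Without their 2 farthest tumors, these values of r were -0.23, 0.28 and 0.17.

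By group of genes, the median r was 0.85 among the GBP and IRG genes (45 pairs), 0.78 among the other 29 genes (406 pairs) and 0.76 between them (290 pairs). Within the sgCda tumors alone, these medians were 0.87, 0.59 and 0.61, and within the sgNT tumors 0.97, 0.94 and 0.94. The median among GBP and IRG genes was thus high in each group, while that among the antiviral genes was lower within sgCda tumors; this difference was not tested. Samd9l (0.49), Tgtp2 (0.54), Oas1a (0.56) and Ifih1 (0.63) had the lowest median r with the other members. Herc6 (0.87) had the highest.

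Genes upstream of the set were next examined, from a list of 29 ligands, receptors, kinases, transcription factors, sensors and inhibitors, of which 25 passed the filter. At an unadjusted p under 0.05, 0 had higher and 1 had lower levels in sgCda tumors, against 1.54% and 0.954% of all genes. Of the 25, 0 passed adjustment, and the median log2 fold change was -0.05. The 1 gene was Ifnb1, for interferon-beta, with 10, 6, 51, 44 and 4 counts in sgNT tumors 1 to 5 and 3, 2, 11, 2 and 10 counts in sgCda tumors 1 to 5. The counts are low, and the high ones are those of sgNT 3 and sgNT 4. The log2 fold change of Ifnb1 was -2.07 (95% interval -3.83 to -0.30, adjusted p = 0.9996). Ifng, for interferon-gamma, averaged 8.70 CPM over the 5 sgNT tumors (SD 3.08) and 9.82 CPM over the 5 sgCda tumors (SD 4.27), and was highest in sgCda 3. The genes for the receptor chains Ifnar1, Ifnar2, Ifngr1 and Ifngr2 had log2 fold changes between -0.08 and 0.10. The remaining listed ligands Ifne, Ifnk, Ifnl2 and Ifnl3 had 2, 6, 1 and 0 counts in all tumors together. Genes of the interferon-alpha family were not on the list and were not examined.

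Irf1, the transcription factor induced by interferon-gamma, was at 350, 337, 456, 428 and 357 CPM in sgNT tumors and 330, 371, 365, 417 and 324 CPM in sgCda tumors. The 3 highest tumors of Irf1 were sgNT 3, sgNT 4 and sgCda 4, the same 3 that held the highest value of every member. Its median r with the 39 genes was 0.80 over 10 tumors, and 0.58 without sgNT 3 and sgNT 4. Over GBP and IRG genes the median was 0.93, and 0.91 without those tumors; over the other genes it was 0.78 and 0.48. Gbp7 had the highest r with Irf1 (0.97, and 0.97 without the 2 tumors) and Samd9l the lowest (0.22, and -0.52). Ifnb1, added after its values were seen, had a median r of 0.60, which turned to -0.23 without sgNT 3 and sgNT 4 and therefore rests on those tumors. In sgCda 4, which was high for the members, Ifnb1 had 2 counts.

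**Figure D5:**
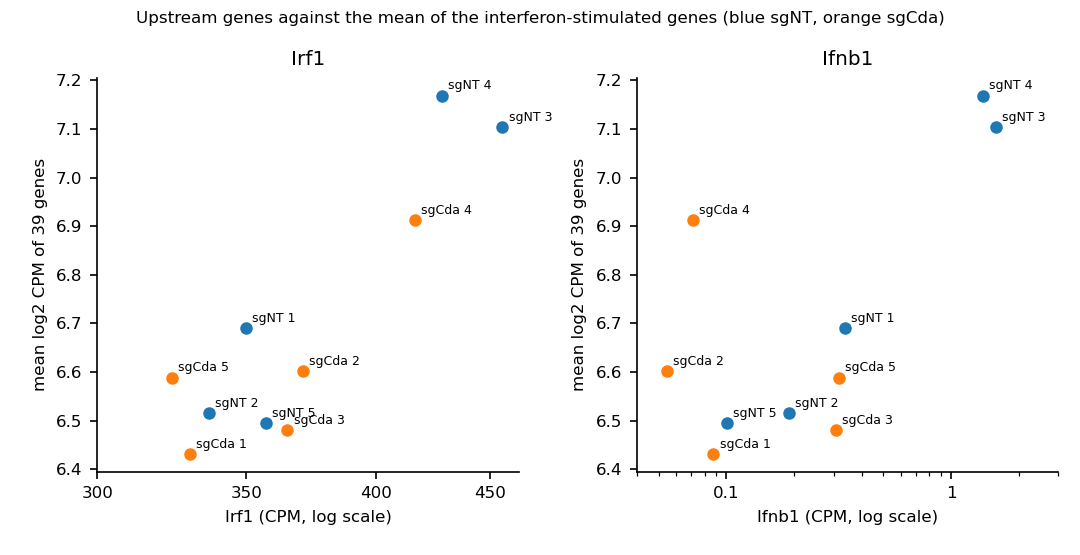
Mean log2 CPM of the 39 genes against CPM of Irf1 and of Ifnb1 on log axes, 1 point per tumor. sgNT 3, sgNT 4 and sgCda 4 are the upper 3 points; they are also the highest for Irf1, while only sgNT 3 and sgNT 4 are high for Ifnb1.

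Correlation with the members was also computed for Ifng and for one marker each of T cells and macrophages. The median r with the 39 genes was 0.26 for Ifng, -0.06 for Cd8a, a marker of cytotoxic T cells, and -0.01 for Adgre1, the macrophage gene that codes for F4/80. Without their 2 farthest tumors, these medians were 0.59, 0.13 and 0.24. Summed levels of 8 T cell markers were 264 to 428 CPM in sgNT tumors and 187 to 627 CPM in sgCda tumors, with 428 in sgNT 3, 292 in sgNT 4 and 193 in sgCda 4. Summed levels of 8 macrophage markers were 3657, 2937 and 2339 CPM in these 3 tumors, the last being the lowest of all. Single macrophage markers went different ways. Fcgr1 was at 121 CPM in sgNT 3 and 116 CPM in sgNT 4, against 71.1 to 82.4 CPM in the other sgNT tumors. Msr1 was at 121 and 144 CPM, against 73.3 to 95.7 CPM, and Cd68 at 119 and 120 CPM, against 80.6 to 117 CPM. Mrc1 was lower, at 65.5 and 65.4 CPM, against 76.1 to 94.3 CPM. In sgNT 4, Csf1r, C1qa, C1qb and Adgre1 (337, 941, 1005 and 212 CPM) lay within the range of the others. Fcgr1 and Msr1 were lowest of all tumors in sgCda 4, at 67.1 and 54.7 CPM. The 5 NK cell markers summed to 87.2 CPM in sgNT 3 and 83.4 CPM in sgNT 4, the highest of the sgNT tumors, against 45.3 to 67.5 CPM in the others, and were at 61.5 CPM in sgCda 4 and 128 CPM in sgCda 3. Klrk1 made up most of these sums, at 73.0, 65.4, 50.5 and 110 CPM in that order. In sgNT 3, Ncr1 and Eomes (2.70 and 3.47 CPM) lay within the range of sgNT 1, sgNT 2 and sgNT 5. Klrk1, Klrb1c and Klra8 were above that range in both sgNT 3 and sgNT 4. The 6 markers of plasmacytoid dendritic cells, known as strong producers of type I interferon, summed to 116 to 127 CPM in sgNT tumors and 138 to 194 CPM in sgCda tumors, with 116 in sgNT 3, 122 in sgNT 4 and 194 in sgCda 4. Tcf4, which other cells also express, made up most of this sum, while the more specific Siglech had group means of 2.34 CPM (sgNT) and 2.39 CPM (sgCda), and Ccr9 of 2.02 and 2.06 CPM. Tcf4 alone overlapped between groups, and in sgCda 3, the tumor with the most muscle marker counts, Cox6a2 added 19.4 CPM. Skeletal muscle markers were at 300.4 CPM in sgNT 3, 439 in sgNT 4 and 20.9 in sgCda 4. None of the markers was at 0 in all tumors, and the part of these cells in the pattern of the members was not tested.

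A further list of 40 interferon-stimulated genes outside the set gave 37 that passed the filter. Of these, 0 passed adjustment. At an unadjusted p under 0.05, 0 had higher and 3 had lower levels in sgCda tumors, against 1.54% and 0.954% of all genes. Ifi27l2a, a small protein induced by interferon, was at 32.9, 26.1, 49.4, 48.2 and 36.8 CPM in sgNT tumors and 25.2, 30.7, 30.2, 22.4 and 25.2 CPM in sgCda tumors (log2 fold change -0.53, adjusted p = 0.9996). Parp12, an ADP-ribosyltransferase, had a log2 fold change of -0.20 and Rnf213, a large ubiquitin ligase, one of -0.30. Log2 fold changes were below 0 in 33 of the 37, against 47.1% of all genes, with a median of -0.15. Ifit3b, Phf11d and Dtx3l of this list followed the mean of the members over tumors (r = 0.94, 0.93 and 0.90). The 33 signs are not all separate observations.

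Over all genes tested that were not members, the 10 whose log2 CPM was most like the mean of the 39 genes over the 10 tumors were, in this order, Ifit3b (r = 0.94), ENSMUSG00000054588, Phf11d (0.93), Mitd1 (0.92), Misp, Rbm45, Apol9a (0.90), Dtx3l (0.90), Zfp296 and Apol9b (0.90). Ifit3b, Phf11d and Dtx3l were on the list of other interferon-stimulated genes. This likeness was ranked and not tested, and Misp was at only 0.582 CPM on average.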

How the data were processed

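RNA was extracted with TRIzol from s.c. Panc02 tumors (5 sgNT, 5 sgCda), and stranded mRNA libraries were sequenced and aligned to mm10 by the authors (TopHat and Bowtie on the first 50 bases of each read). The deposited values are raw HTSeq counts per Ensembl gene with no normalization; the strand setting and annotation release are not given in the sources used here. A table of gene names gave symbols for 32608 of 37417 identifiers, and 5 HTSeq summary rows were dropped. Positions and exonic lengths came from the GENCODE annotation on GRCm38.

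From the counts, genes were filtered with filterByExpr (minimum count 10, total 15), scaled with TMM factors and compared by edgeR's quasi-likelihood test (version 4.0.16 in R 4.3.3) over the 10 tumors, with Benjamini-Hochberg adjustment over 15299 genes. Log2 CPM used a prior count of 2. Correlation p-values came from 100000 permutations of tumors. The test was checked on simulated counts. Groups came from the sample titles, and p-values weigh the difference between groups against the spread between these tumors.

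Members and lists were chosen with earlier results of these data known. Per-tumor values are given, in each role, for the gene of smallest p and the gene of largest SD, and for Isg15, Irf7, Rsad2 and Cmpk2. Alternatives were DESeq2 1.42.0 (size factors and Wald test), limma-voom 3.58.1, library totals, other filters, a replicate block, another prior count and removal of each tumor. Alignments to more than 1 place made up 37.1% to 39.2% of all HTSeq rows and are not in the counts.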

Additional observations from a re-analysis of the deposited data

Results flagged for a closer look

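Of 94 groups of 5 values examined, 78 of them of members, 3 held a tumor far from the other 4 of its group by Dixon's test at the 95% level, all in members; chance alone gives about 1 in 20, here 4.7 of 94 or 3.9 of 78. Oas2 in sgCda 4 was at a log2 CPM of 5.32, where the other 4 sgCda tumors lay between 3.78 and 4.07. Ifih1 in sgCda 3 was at 6.37, where the others lay between 6.76 and 6.80. Samd9l in sgNT 5 was at 8.13, where the others lay between 8.36 and 8.44.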

How the results depend on the processing

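Under all 17 alternatives to the fold changes, 0 genes of the set and 0 of all genes had an adjusted p under 0.05. The number of members with an unadjusted p under 0.05, 4 in the main analysis, was 7 with a filter of 1 count in any tumor and 2 with limma-voom, and 1 to 11 when a tumor was left out (1 without sgNT 3, sgNT 4 or sgCda 3, 11 without sgNT 5). Over all genes, that number was 830 with the filter of 1 count in any tumor and 280 to 747 when a tumor was left out (747 without sgCda 3), against 382. The median log2 fold change of the 39 genes stayed below 0, at -0.26 to -0.10 with a tumor left out, and 33 genes kept their direction throughout. The other 6 changed sign at values near 0. Iigp1 was at 0.00823 with library totals. With a tumor left out, Oas2 ranged from -0.466 to 0.0976, Mx1 from -0.315 to 0.00275, Xaf1 from -0.255 to 0.00693, Trim30a from -0.151 to 0.0152, Iigp1 from -0.0814 to 0.0591 and Tgtp2 from -0.0224 to 0.141; Ifng, upstream, ranged from -0.113 to 0.324. The cause was not tested. The median r between members was 0.56 without sgNT 3 and sgNT 4, and 0.71 to 0.84 with single tumors left out.

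The replicate numbers recur in both groups, but no label ties a number to a shared mouse, litter or day. Deviations from the group means of same-numbered tumors correlated at -0.03, -0.02, 0.33, -0.43 and 0.34. The sgCda tumor that matched best had the same number for replicates 3 and 5 and another number for replicates 1, 2 and 4. These few values cannot show whether same-numbered tumors share a batch, and the main fit did not pair them. With the replicate number as a block, 3 members had an unadjusted p under 0.05, the median log2 fold change was -0.18 and the median r was 0.76.

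With 5 tumors a group, standard errors of single members ran from 0.0778 (Irf9) to 0.322 (Rsad2) on the log2 scale. Host and cancer cell RNA are mixed, and counts of near-identical copies are incomplete.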
